A study of Mus musculus with 24 samples.

Results

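The tubulin isotypes described here are 10 mouse genes: the alpha-tubulin genes Tuba1a, Tuba1b and Tuba4a, the beta-tubulin genes Tubb2a, Tubb2b, Tubb3, Tubb4a, Tubb4b and Tubb5, and the gamma-tubulin gene Tubg1. They were taken by gene symbol from the table of mRNA transcripts, and the expected counts of their transcripts were summed per gene, which gave 10 of 36096 genes. All 10 passed the filter on low values. The tissue was the medial frontal cortex of C57BL/6J mice at postnatal day 28. Control mice had the genotype Emx1-cre, a Cre recombinase driver active in the dorsal forebrain lineage that gives rise to excitatory cortical neurons and to glia. Mice of the other genotype, labelled Dnmt3l;Emx1-cre and called Dnmt3l here, carried a conditional Dnmt3l knock-in together with the same driver. Cortical cells from outside the Emx1 lineage, such as interneurons, microglia and vessel cells, were in the same tissue samples. Each of the 4 groups of genotype and sex held 3 ribosomal RNA-depleted libraries, named CM1 to CM3 (control male), CF1 to CF3 (control female), DM1 to DM3 (Dnmt3l male) and DF1 to DF3 (Dnmt3l female). The labels do not say whether the samples came from separate animals, so a p-value here reflects only how much these libraries vary, and some of that variation may be technical.

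Microtubules are hollow polymers of alpha-tubulin and beta-tubulin dimers, and gamma-tubulin nucleates them at centrosomes and at other sites. Mammals encode several isotypes of each subunit, which differ mostly at their acidic tails and in the cell types and stages that use them. In the brain Tuba1a and Tubb2b are known for their part in neuronal migration and axon growth during development, Tubb3 is a widely used neuronal marker, Tubb4a is abundant in neurons and in oligodendrocytes, and Tubb5 and Tuba1b are made in many cell types. Cells also lower their tubulin mRNAs when free dimers accumulate, through the ribosome-bound factor Ttc5.

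Dnmt3l RNA matched the genotype labels, with 0 to 3 counts in each control library, 20.7 to 27.0 CPM (counts scaled to a common library size with TMM) in 5 Dnmt3l libraries and 45.8 CPM in DF1. Totals ran from 27074837 to 32100277 counts per control library and from 22144970 to 26842726 per Dnmt3l library. DF1 stood apart from the other Dnmt3l libraries in the genes described below. Transcripts of liver proteins were present in CM3, CF1 and CF2, where 17 liver genes summed to 93.2, 107 and 112 CPM, against 0.555 to 1.88 CPM in the other 9 libraries. Excitatory neuron markers of the cortex (14 genes, all past the filter on low values) did not move together, with 6 called lower, 2 called higher and a median log2 change of −0.33. Their sum, 5410 to 6469 CPM in controls and 6672 to 7936 CPM in Dnmt3l, was higher in each Dnmt3l library than in each control. Of its members, named here after their values were seen, Camk2a and Slc17a7 rose (log2 changes of 0.47 and 0.40), while Neurod6 and Bcl11b fell (−1.57 and −0.67). Because of DF1 and the liver transcripts, the changes of the tubulin genes are also given without DF1, without the 3 liver-containing libraries, and without all 4.

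Averaged over sexes, 9 of the 10 tubulin mRNAs fell in the Dnmt3l cortex and 1, Tubb2b, did not. The falls ran from 0.52 on the log2 scale for Tuba1a to 0.89 for Tubb3, leaving 69.9% and 53.9% of the control level. Among all 15786 genes tested, 26.4% were called lower and 25.2% higher in the same comparison (edgeR, Benjamini-Hochberg adjusted p below 0.05). The median log2 change was −0.66 over the 10 tubulin genes and 0.02 over all genes. In 6 of the 10 genes all 6 Dnmt3l libraries lay below all 6 controls, a pattern found for 6.83% of all genes, and in 0 of 10 did they lie above, against 5.47% of all genes. With DF1 set aside, the other 5 Dnmt3l libraries lay below all 6 controls in 9 of 10 tubulin genes and in 23.7% of all genes. In bulk tissue, fewer cells of a type and less RNA per cell cannot be told apart.

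**Figure D1:**
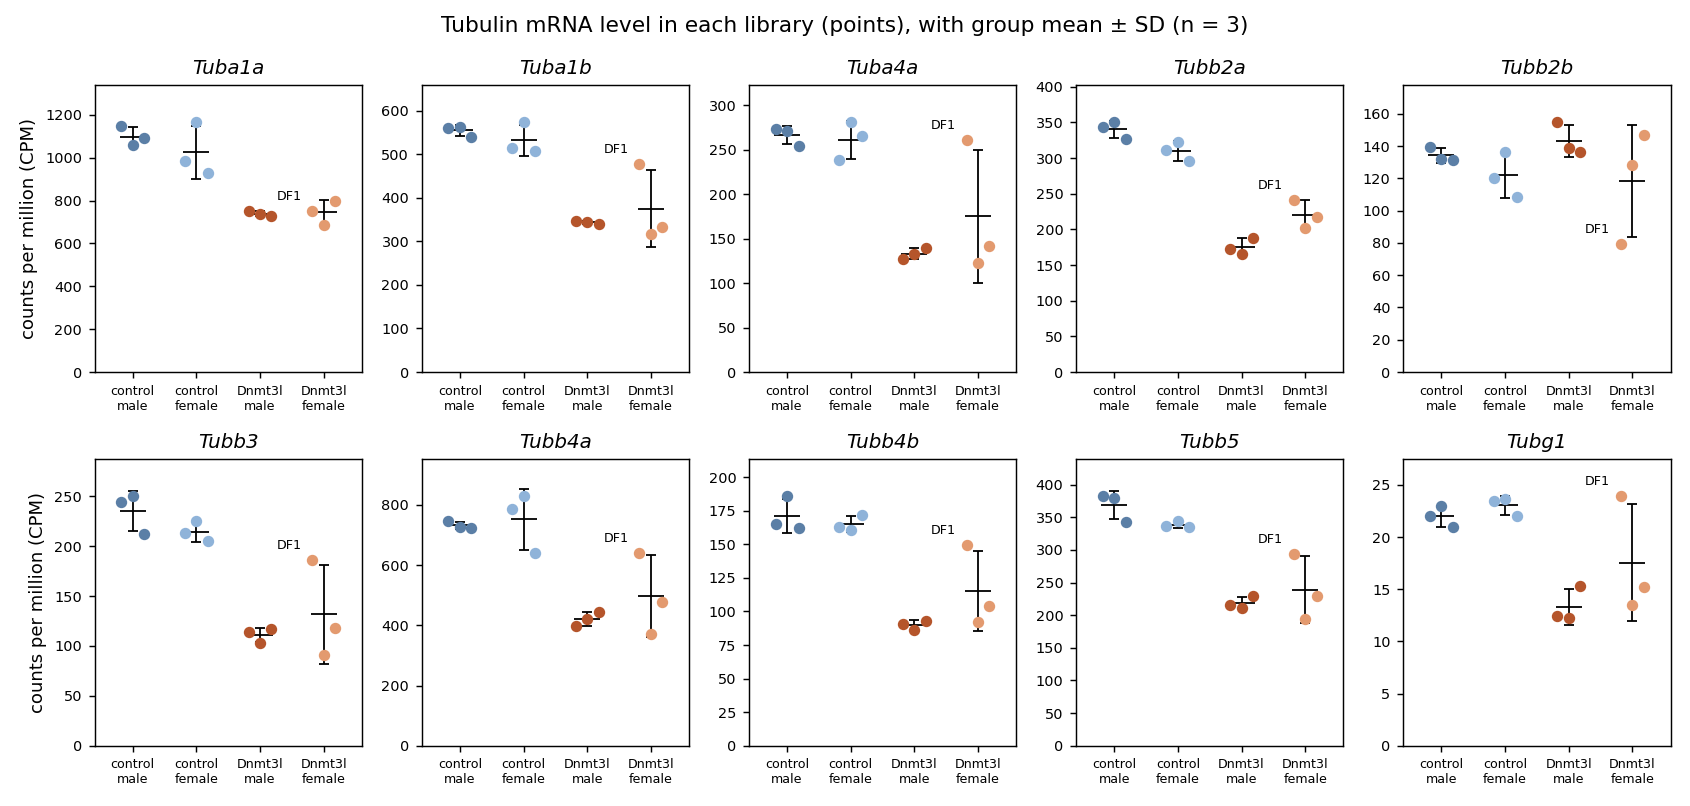
CPM (vertical axis, from 0, a separate scale per gene) of the 10 tubulin mRNAs in the 12 libraries, grouped by genotype and sex. Points are libraries and bars are the mean ± SD of 3. The Dnmt3l points lie low in 9 panels, with DF1 nearest to the controls in most of them, while the Tubb2b points overlap between genotypes.

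Tuba1a encodes the main alpha-tubulin of developing neurons and lies on chromosome 15 (98949837 to 98953703, minus strand, GRCm38; ENSMUSG00000072235). Its level was 1147, 1058 and 1092 CPM for control males, 983, 1165 and 927 in control females, 749.7, 738 and 728 in Dnmt3l males, and 752, 685 and 800.4 in Dnmt3l females. All 6 Dnmt3l libraries were below all 6 controls, and DF1 lay within the range of the other 5. Averaged over sexes, its log2 change was −0.52 ± 0.07 (SE; edgeR adjusted p = 0.000254, lower in 6 of 6 libraries). Per length, Tuba1a was the most abundant tubulin mRNA in both genotypes, at 701 ± 61.1 FPKM in controls and 458 ± 24.5 FPKM in Dnmt3l (SD, n = 6 each).

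The neighbouring alpha-tubulin gene Tuba1b, on the same strand (98931425 to 98934565), had 554 ± 11.98 CPM for control males, 343 ± 3.72 in Dnmt3l males, 532 ± 35.97 in control females and 375 ± 89.2 in Dnmt3l females (SD, 3 libraries each, n = 3). Its log2 change was −0.60 ± 0.09 (SE; edgeR adjusted p = 0.000396). Dnmt3l males and DF2 and DF3 were closely grouped at 316 to 346 CPM, and DF1 was higher at 478 CPM, still below the lowest control, 507 CPM. Tuba1a, Tuba1b and Tuba1c are near-identical in their coding sequence, and another gene model, Gm49450, overlaps both Tuba1a and Tuba1b on their strand, so the division of reads among them is uncertain. Gm49450 was given 0 to 1031 expected counts per library. Adding all of these counts to Tuba1a or to Tuba1b left both genes called lower.

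Tuba4a, an alpha-tubulin that unlike the other two is translated without a C-terminal tyrosine, showed a larger fall and a wider spread (chromosome 1, 75214228 to 75219865, minus strand). Control males had 273, 271 and 254 CPM and control females 238, 281 and 265, against 127, 133 and 139 in Dnmt3l males and 260.5, 123 and 142 in Dnmt3l females. DF1 lay inside the control range, while the other 5 Dnmt3l libraries were all below 143 CPM. The log2 change was −0.79 ± 0.14 (SE; edgeR adjusted p = 0.000912). Its end overlaps Stk16 on the opposite strand, and the sources used here do not say whether the counting used strand.

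Among the beta-tubulins, the neighbours Tubb2a and Tubb2b on chromosome 13 (34074274 to 34078007 and 34126748 to 34130466, both on the minus strand) differed. Tubb2a was measured at 344, 350.0 and 326 CPM for control males, 312, 322 and 296 in control females, 173, 166 and 188 in Dnmt3l males, and 242, 202 and 218 in Dnmt3l females. No Dnmt3l library reached the lowest control, and the male Dnmt3l libraries were lower than the female ones. The log2 change was −0.72 ± 0.06 (SE; edgeR adjusted p = 6.85e-05), the lowest adjusted p of the 10 genes.

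Tubb2b, whose loss disturbs neuronal migration, was at 139, 132 and 131 CPM in males and 120.5, 136 and 108 CPM in females of the control genotype. In Dnmt3l males it was at 155, 139 and 136 CPM, and in Dnmt3l females at 79.4, 128 and 147. The genotypes overlapped, and DF1, at 79.4 CPM, was the lowest of all 12 libraries. The log2 change was 0.03 ± 0.12 (SE; 95% interval −0.23 to 0.29; edgeR adjusted p = 0.873), and the lower bound lies above the fitted change of each of the other 9 genes. Without DF1 it was 0.12 ± 0.06 (edgeR adjusted p = 0.113), and without the 3 liver-containing control libraries 0.08 ± 0.17 (edgeR adjusted p = 0.739). Without all 4 it was 0.19 ± 0.07 (edgeR adjusted p = 0.0476), the 1 fit of these 4 in which it was called. Tubb2a and Tubb2b are near-identical paralogs, and reads could have been divided wrongly between them.

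Tubb3, the neuron-specific class III beta-tubulin, had the lowest log2 change of the 10 genes (chromosome 8, 123411424 to 123422015, plus strand). The levels were 244, 250.1 and 213 CPM for control males, 213, 225 and 205 in control females, 114, 103 and 117 in Dnmt3l males, and 186, 90.6 and 118 in Dnmt3l females. The 6 Dnmt3l libraries did not overlap with the controls, with DF1 closest to them. The log2 change was −0.89 ± 0.13 (SE; edgeR adjusted p = 0.000385). Galnt2l, a gene model that spans Tubb3 on the same strand, could have taken some of its reads. It was given 770 to 958 expected counts per control library and 480 to 1022 per Dnmt3l library. Tubb3 had 6032 to 7639 and 2007 to 4798. How far the fall of Tubb3, and its rank among the 10 genes, depends on this division was not tested.

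Tubb4a was the most abundant beta-tubulin per length, at 384 ± 30.7 FPKM in controls and 223 ± 52.4 in Dnmt3l (SD, n = 6 each; chromosome 17, 57080066 to 57087782, minus strand). Male levels were 732 ± 12.503 CPM in controls and 421 ± 23.1 in Dnmt3l, and female levels 752 ± 99.9 and 497 ± 136 (SD, n = 3 per group), with a log2 change of −0.70 ± 0.11 (SE; edgeR adjusted p = 0.000467). Only DF1 among the Dnmt3l libraries, at 642 CPM, reached the lowest control, CF3 at 639 CPM. Tubb4b, a widely made beta-tubulin that is also a component of ciliary axonemes (chromosome 2, 25222160 to 25224702), fell from 171 ± 12.9 and 165 ± 6.04 to 89.8 ± 3.53 and 115 ± 30.0 CPM. Its log2 change was −0.72 ± 0.10 (SE; edgeR adjusted p = 0.000293), and the genotypes did not overlap.

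Tubb5, the broadly expressed class I beta-tubulin, fell by 0.63 on the log2 scale (SE 0.09; edgeR adjusted p = 0.000293; chromosome 17, 35833921 to 35838306). Male means were 368 ± 21.6 CPM in controls and 219 ± 9.51 in Dnmt3l, and female means 339 ± 4.45 and 239 ± 50.8 (SD, n = 3 per group). Again all Dnmt3l libraries lay below all controls. Tubb4a, Tubb4b and Tubb5 are close paralogs too, so part of their reads may have been shared.

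Tubg1 encodes a gamma-tubulin, which sits in the ring complex that templates new microtubules (chromosome 11, 101119938 to 101126419, plus strand). It was far less abundant, at 22.0, 23.0 and 21.0 CPM for control males, 23.5, 23.7 and 22.0 in control females, 12.4, 12.3 and 15.3 in Dnmt3l males and 23.9, 13.5 and 15.2 in Dnmt3l females. DF1 was higher than every control, and the other 5 Dnmt3l libraries were lower than every control. The log2 change was −0.56 ± 0.12 (SE; edgeR adjusted p = 0.00272).

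The falling genes differ in the sequence before their start sites. Of the 10 genes, 8 had an entry among the 32851 RefSeq promoter windows of 300 bases (250 before and 50 after the start, GRCm38.p6). Tubb2b and Tubg1 had none, so falling genes could not be compared with the gene that did not fall. Those of Tubb3 (the largest fall), Tubb2a (the falling neighbour of Tubb2b), Tuba1a (the most abundant) and Tubb4b (the most CCAAT boxes) are shown 5′ to 3′ on the gene's strand. Capitals mark matches to 3 motifs, each searched on its own and on both strands. The GC box was spelled GGGCGG. For the box that binds the trimeric factor NF-Y the letters were CCAAT. For the TATA box, which helps to position transcription starts, they were TATAAA.
Tubb3, chr8:123411303-123411602, plus strand: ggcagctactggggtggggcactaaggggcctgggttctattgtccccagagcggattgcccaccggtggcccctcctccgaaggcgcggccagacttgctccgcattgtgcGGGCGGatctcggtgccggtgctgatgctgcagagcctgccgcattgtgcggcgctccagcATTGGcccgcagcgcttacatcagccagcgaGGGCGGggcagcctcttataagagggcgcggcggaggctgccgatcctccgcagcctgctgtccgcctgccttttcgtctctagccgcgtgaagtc
Tubb2a, chr13:34077959-34078258, minus strand: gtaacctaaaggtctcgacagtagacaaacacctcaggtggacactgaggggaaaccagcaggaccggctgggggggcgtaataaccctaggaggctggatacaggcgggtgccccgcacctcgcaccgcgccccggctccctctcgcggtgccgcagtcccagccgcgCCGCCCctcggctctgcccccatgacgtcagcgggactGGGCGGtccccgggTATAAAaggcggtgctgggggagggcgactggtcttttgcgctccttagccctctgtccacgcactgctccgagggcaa
Tuba1a, chr15:98953452-98953751, minus strand: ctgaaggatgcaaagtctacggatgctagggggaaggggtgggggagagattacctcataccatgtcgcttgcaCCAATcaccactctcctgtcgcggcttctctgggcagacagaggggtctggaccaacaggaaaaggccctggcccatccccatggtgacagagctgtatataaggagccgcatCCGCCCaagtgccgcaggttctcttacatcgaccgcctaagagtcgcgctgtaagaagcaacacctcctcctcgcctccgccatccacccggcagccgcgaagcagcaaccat
Tubb4b, chr2:25224653-25224952, minus strand: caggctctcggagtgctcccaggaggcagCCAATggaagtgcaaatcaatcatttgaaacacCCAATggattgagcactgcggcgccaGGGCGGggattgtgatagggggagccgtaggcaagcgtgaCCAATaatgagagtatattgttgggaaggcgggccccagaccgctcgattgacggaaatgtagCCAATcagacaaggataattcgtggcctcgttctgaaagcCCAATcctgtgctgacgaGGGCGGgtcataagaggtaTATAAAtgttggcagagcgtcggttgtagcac

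A GC box was found in 7 of the 8 windows and in 35.7% of all promoter windows, a CCAAT box in 4 of 8 and in 37.4% of all, and a TATA box in 2 of 8 and in 13.6% of all. The windows held 16 to 39 CpG dinucleotides, and 33.0% of all promoter windows held 16 or more. Tubb4b had 5 CCAAT boxes, 2 GC boxes and a TATA box. Tubb3 had 2 GC boxes and 1 CCAAT box, Tubb2a 2 GC boxes and a TATA box, and Tuba1a 1 GC box and 1 CCAAT box. No motif was shared by all 8 of these windows, and motif matches describe the letters only.

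Both sexes showed the falls. In males 9 of 10 genes were called lower, when 22.7% of all genes were called lower and 20.4% higher, with a median log2 change of −0.77. The male falls were largest for Tubb3 (−1.08 ± 0.19), Tuba4a (−1.001 ± 0.21) and Tubb2a (−0.95 ± 0.09 SE; edgeR adjusted p = 0.00163, 0.00282 and 0.000406), which left 47.2%, 49.96% and 51.7% of the control male level. In females 7 of 10 were called lower, when 4.38% of all genes were called lower and 4.73% higher, with a median log2 change of −0.50. Tuba4a (−0.58 ± 0.20, edgeR adjusted p = 0.076) and Tubg1 (−0.39 ± 0.17, edgeR adjusted p = 0.135) were not called in females. Without DF1 all 9 genes other than Tubb2b were called lower in females, from −1.05 to −0.48 on the log2 scale. Calls over all genes moved as well: with 1 library left out, up to 3995 were called lower in females, against 691 in the main fit.

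**Figure D2:**
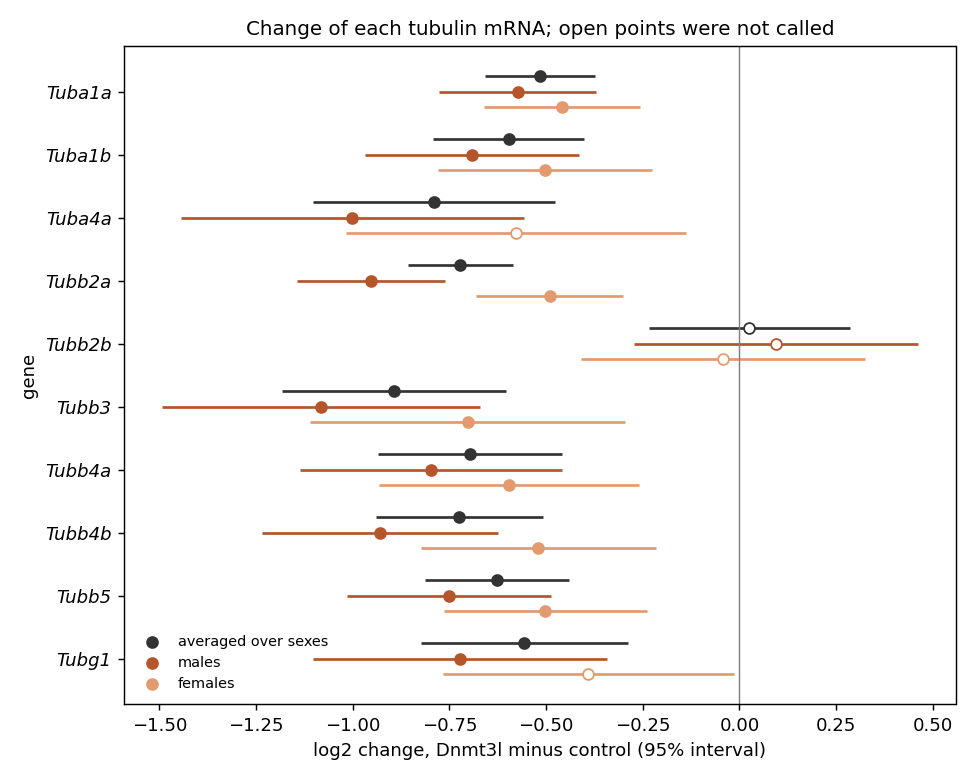
Log2 change (horizontal axis, Dnmt3l minus control, edgeR) of each tubulin gene averaged over sexes, in males and in females, with 95% intervals. Filled points were called at an adjusted p below 0.05 and open points were not. Averaged over sexes 9 genes lie left of 0, from −0.89 to −0.52, and Tubb2b lies at 0.03.

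The female calls lay close to the threshold (edgeR adjusted p 0.0257 to 0.042 for the 7 called genes), and 9 of the 10 genes had an unadjusted p under 0.05. Leaving out any 1 library other than DF1 left 0 to 2 of the 10 genes called lower in females. With any 1 of the 12 libraries left out, DF1 included, 5 to 3995 of all genes were called lower in females, against 691 in the main fit. Without CM3, CF1 and CF2 the female comparison has CF3 as its only control, assumed to vary like the other groups, and 0 of 10 genes were called lower (5 at an unadjusted p under 0.05; log2 changes of the 9 other than Tubb2b −0.65 to −0.33, edgeR adjusted p 0.401 to 0.545). Averaged over sexes the same 9 genes were called without the 3 libraries (−0.92 to −0.47, edgeR adjusted p 0.0111 to 0.0429), and in males too (−1.18 to −0.60). Fewer of all genes were also called lower without the 3 libraries, averaged over sexes, in males and in females. Without DF1 alone 5178 of all genes were called lower averaged over sexes, against 4160 in the main fit. In that fit the 9 genes were called lower averaged over sexes (−1.08 to −0.54) and in males (−1.11 to −0.60). Without all 4 libraries CF3 is again the only control female, so only the sizes are given. The log2 changes of the 9 genes were −1.09 to −0.47 averaged over sexes, −1.18 to −0.60 in males and −1.02 to −0.34 in females.

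The difference between the male and the female effect was not called for any of the 10 genes (edgeR adjusted p 0.679 to 0.875) nor for any of the 15786 genes (0.0% called, 1120 at an unadjusted p under 0.05). DESeq2 called 5 of all genes and limma with library weights 6, and neither called any of the 10. Tubb2a had the lowest unadjusted p among the 10, 0.00255, with a male minus female difference of −0.46 ± 0.12 (SE; 95% interval −0.73 to −0.19; edgeR adjusted p = 0.679). It fell to 51.7% of control in males and to 71.2% in females. Between control females and control males, 0 of 10 tubulin genes were called, with log2 differences from −0.14 to 0.07, when 0.0253% of all genes were called (edgeR; 0 of the 10 had an unadjusted p under 0.05).

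DF1 lay apart from the other Dnmt3l libraries for most of the genes. Relative to the control mean of the same sex, the median log2 difference of the 10 genes was −0.85, −0.82 and −0.71 in DM1, DM2 and DM3, −0.79 and −0.62 in DF2 and DF3, and −0.20 in DF1. In DF1 the values were 0.00 for Tuba4a, 0.05 for Tubg1 and −0.15 for both Tuba1b and Tubb4b. Tuba1a (−0.44) and Tubb2a (−0.36) were the lowest of the falling genes there, and Tubb2b, at −0.61, was lower than all of them. Across the other 5 Dnmt3l libraries Tubb2b was 0.03 to 0.28 above its control mean.

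**Figure D3:**
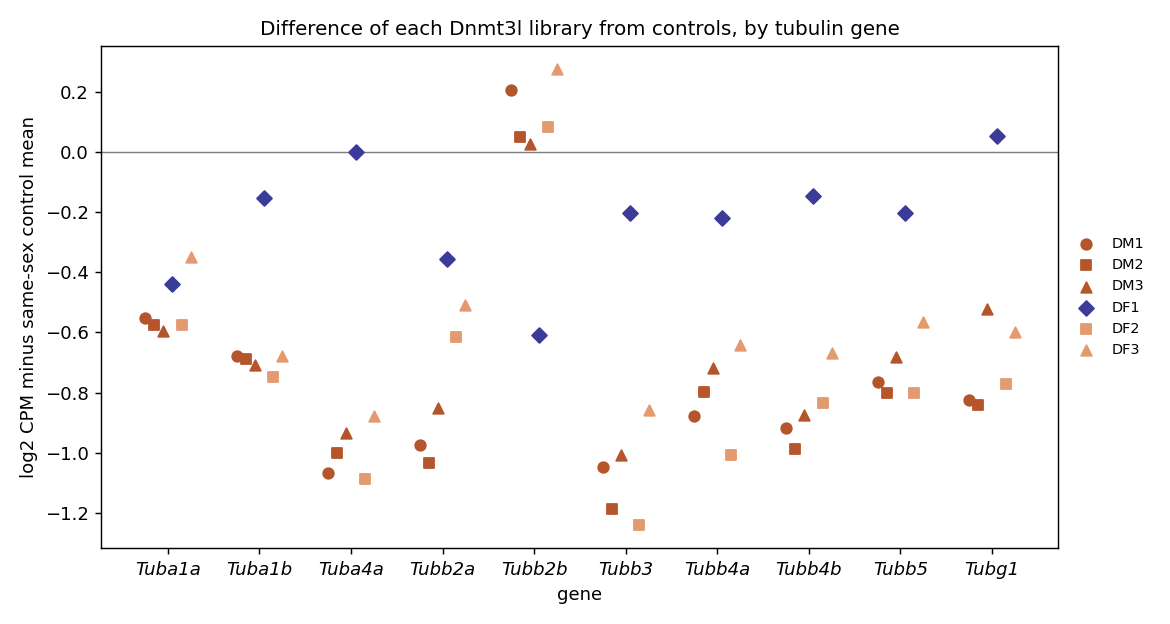
Difference in log2 CPM between each Dnmt3l library and the mean of the 3 controls of its sex (vertical axis) for the 10 tubulin genes (horizontal axis). Each symbol is a library. In DF1 (diamonds) the 9 genes other than Tubb2b lie at −0.44 to 0.05 and Tubb2b at −0.61. The other 5 libraries lie low for those 9 genes and at 0.03 to 0.28 for Tubb2b.

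After group means were subtracted, the log2 CPM of most of the 9 genes other than Tubb2b varied together over the 12 libraries. The median Pearson r was 0.87 over their 36 pairs (0.02 to 0.99). Over the 12 libraries Tuba1a followed the others less, with r of 0.02 to 0.54. This too rested largely on DF1: without it these r ran from −0.09 with Tubb4b to 0.90 with Tuba1b. The 9 pairs that include Tubb2b had a median r of −0.69, while its pair with Tuba1a was at 0.34. Without DF1 the medians were 0.61 and 0.45, so the sign of the median of the Tubb2b pairs rested on that library. These points share libraries and scaling, and the correlations are a description only.

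Per length, the summed alpha-tubulin mRNA was 1123 to 1328 FPKM in controls, 723 to 786 FPKM in 5 Dnmt3l libraries and 966 FPKM in DF1. The summed beta-tubulin mRNA was 1046 to 1227 FPKM in controls, 600 to 707 FPKM in the same 5 libraries and 906 in DF1. Both sums were thus lower in every Dnmt3l library than in every control. The ratio of alpha to beta was 0.993 to 1.136 in controls and 1.07 to 1.21 in Dnmt3l, with overlap.

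Within the beta sum, Tubb2b made up 5.54% to 7.01% in controls, 10.3% to 13.9% in 5 Dnmt3l libraries and 4.56% in DF1. Tubb3 made up 11.7% to 13.4% in controls, 9.01% to 10.7% in those 5 and 12.7% in DF1. Shares of Tubb2a, Tubb4a, Tubb4b and Tubb5 overlapped between genotypes. The FPKM ratio of Tubb2b to Tubb2a was 0.257 to 0.346 in controls, 0.447 to 0.749 in 5 Dnmt3l libraries and 0.231 in DF1, and this difference was not tested.

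Within the alpha sum, Tuba1a made up 54.5% to 57.7% in controls and 60.0% to 62.4% in 5 Dnmt3l libraries, and Tuba4a 11.9% to 13.9% and 9.18% to 10.4%. In DF1 the shares were 50.2% for Tuba1a and 15.7% for Tuba4a, outside the control range in the other direction. Shares depend on each other and on the effective lengths used by the authors, so they are given without a test.

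**Figure D4:**
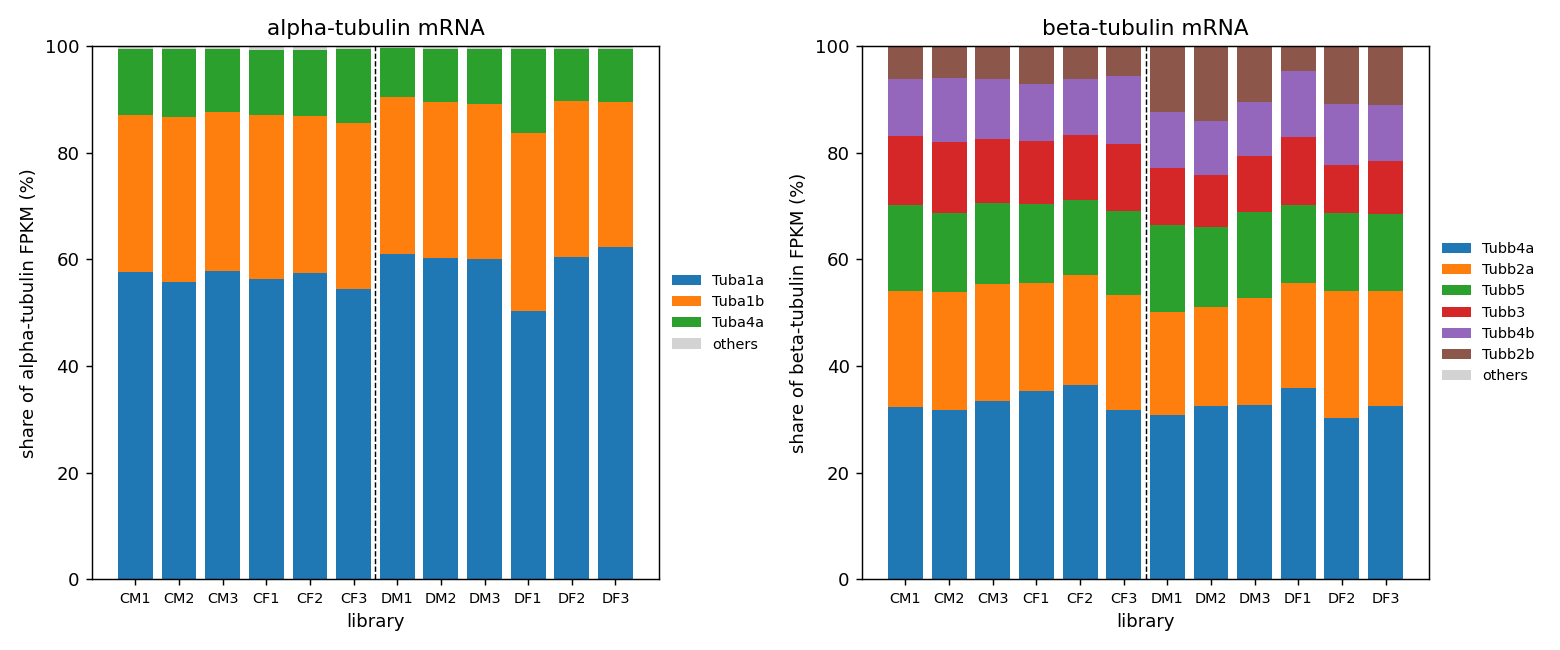
Share (%) of each isotype in the summed alpha-tubulin FPKM (left) and beta-tubulin FPKM (right) of the 12 libraries, with controls to the left of the dashed line. The Tubb2b segment is 10.3% to 13.9% in 5 Dnmt3l libraries, against 5.54% to 7.01% in controls and 4.56% in DF1.

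The order of levels per length in controls was Tuba1a, Tubb4a (384 ± 30.7 FPKM), Tuba1b (374 ± 21.3), Tubb2a (245 ± 17.5), Tubb5 (173 ± 10.5), Tuba4a (156 ± 10.97), Tubb3 (143 ± 12.98), Tubb4b (130.1 ± 9.68), Tubb2b (70.7 ± 7.01) and Tubg1 (15.9 ± 1.07; SD, n = 6 each). The spreads of Tubb4a and Tuba1b over libraries overlapped, as did those of the neighbours in this order from Tubb5 through Tuba4a and Tubb3 to Tubb4b. Compared within each control library, Tubb3 was always below Tuba4a, while each of these other pairs changed order between libraries. In Dnmt3l the means of Tubb4b (74.9 ± 19.0), Tubb3 (72.2 ± 21.8) and Tubb2b (68.3 ± 14.9) lay within each other's spread.

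Most of the 10 genes were counted almost wholly on 1 transcript. The main transcript held at least 96.9% of the counts of Tuba1a, Tuba1b, Tubb2a, Tubb2b, Tubb3, Tubb4a and Tubb4b in every library, and 91.2% to 96.8% for Tubb5 and 85.0% to 91.5% for Tuba4a. Tubg1 differed: its second, shorter transcript of 852 bases took 2.54% to 7.32% of the gene's counts in controls and 7.67% to 20.1% in Dnmt3l, without overlap. DF1 had the lowest of the Dnmt3l values, and this difference was not tested. The whole gene had 636 to 706 expected counts per control library and 277 to 616 per Dnmt3l library, so the shorter transcript rested on few counts. A higher share of a smaller total need not mean more of that transcript. How often other genes show such a pattern was not tested. The long non-coding table of 23698 transcripts held 0 rows named for the 10 genes.

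Other tubulin genes were at low levels, and 6 of the 10 listed passed the filter. Tuba8, an alpha-tubulin of brain and muscle, fell by 1.07 on the log2 scale (SE 0.21; edgeR adjusted p = 0.00119), with male means of 11.1 ± 0.983 CPM in controls and 5.31 ± 0.714 in Dnmt3l, and female means of 12.99 ± 2.21 and 6.13 ± 3.38 (SD, n = 3 per group). Tubg2, the second gamma-tubulin gene and the form enriched in brain, fell by 0.67 (SE 0.11; edgeR adjusted p = 0.000584) from 27.0 ± 1.63 CPM to 17.0 ± 3.26 CPM (SD, n = 6 each). Its control mean was above that of Tubg1, 22.5 ± 1.03 CPM (SD, n = 6). Tubb6, a beta-tubulin of non-neuronal cells, rose by 1.135 ± 0.32 (SE; edgeR adjusted p = 0.0101), from 0.697 ± 0.201 to 1.51 ± 0.569 CPM (SD, n = 6 each). Tuba1c (0.04), Tubd1 (0.22) and Tube1 (0.23) were not called, with edgeR adjusted p of 0.925, 0.361 and 0.298.

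Newly made tubulin is folded by prefoldin, the cytosolic chaperonin and a set of cofactors. Of 23 listed chaperonin, prefoldin and cofactor genes, 17 fell and 1 rose averaged over sexes, with a median log2 change of −0.44, where 26.4% of all genes were called lower and 25.2% higher. All 8 subunits of the cytosolic chaperonin, which folds newly made actin and tubulin, were among those that fell. The lowest value was that of Pfdn6, a prefoldin subunit (−0.89 ± 0.19 SE, edgeR adjusted p = 0.00223), at 16.3 CPM in DF1 and 6.50 to 7.02 CPM in the other 5 Dnmt3l libraries. Tbce, a cofactor that joins the dimer, rose by 0.32 ± 0.09 (edgeR adjusted p = 0.00788), a call lost without the 3 liver-containing libraries (edgeR adjusted p = 0.0642). Without those 3 libraries fewer of the 23, and fewer of all genes, were called lower.

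Of 4 listed genes of tubulin mRNA autoregulation, 1 was called lower, a share near the 26.4% of all genes called lower. Ttc5, the factor that recognises nascent tubulin, had a log2 change of −0.14 ± 0.08 (SE; 95% interval −0.31 to 0.03; edgeR adjusted p = 0.163). It was called lower with limma on log2(FPKM + 0.1), at −0.25 (limma adjusted p = 0.0446). Cnot11, the subunit that links the decay machinery to the tubulin mRNA, fell by 0.70 (SE 0.13; edgeR adjusted p = 0.00105), from 26.9 ± 1.79 to 16.6 ± 4.10 CPM (SD, n = 6 each).

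Genes that bind or sever microtubules were called lower more often than higher, when 26.4% of all genes were called lower and 25.2% higher. Of 26 structural and end-binding proteins 14 fell and 2 rose (median −0.17), with the end-binding gene Mapre2 at −0.63 ± 0.09 and Map7, which recruits kinesin, at 0.17 ± 0.06 (SE; edgeR adjusted p = 0.000365 and 0.0289). The Map7 call was lost without the 3 liver-containing libraries (edgeR adjusted p = 0.12) and without any 1 of CM1, CM2, CF1, CF2, CF3, DM2 and DF3 (edgeR adjusted p 0.052 to 0.112). Of 11 destabilizing and severing genes tested, 8 fell and 0 rose (median −0.23), including all 4 stathmins. Stmn1 fell by 1.07 on the log2 scale (SE 0.22; edgeR adjusted p = 0.0016), from 245 ± 30.7 to 118 ± 57.9 CPM (SD, n = 6 each). Without the 3 liver-containing libraries fewer of those 11, and fewer of all genes, were called lower.

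Of 20 tested tubulin-modifying enzymes, 5 rose and 4 fell, shares near those of all genes (25.2% called higher and 26.4% lower). Ttll3, a glycylase, rose by 0.73 ± 0.10 (SE; edgeR adjusted p = 0.000318), and Ttll7, a polyglutamylase of beta-tubulin in neurons, fell by 0.74 (SE 0.14; edgeR adjusted p = 0.000994), from 345 ± 12.95 to 208 ± 64.3 CPM (SD, n = 6 each). Of 20 nucleation genes 5 rose, again near the 25.2% of all genes, and 3 fell, against 26.4%. Mzt1, a small subunit of the gamma-tubulin ring complex, fell by 0.78 (SE 0.13; edgeR adjusted p = 0.000534), and Nedd1, which targets that complex to centrosomes, rose by 0.54 ± 0.18 (edgeR adjusted p = 0.0233). The Nedd1 call was lost without the 3 liver-containing libraries (edgeR adjusted p = 0.144) and without CM1, CF2 or DF2 alone (edgeR adjusted p 0.0524 to 0.0576). Without those 3 libraries, which leaves CF3 as the only control female, fewer genes were called higher in both lists and among all genes.

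The rest of the neuronal cytoskeleton was also measured. Of 9 actin and neurofilament genes 8 fell (median −0.59), when 26.4% of all genes were called lower. Without DF1 all 9 were called lower, when 5178 of all genes were called lower. Without the 3 liver-containing libraries fewer of the 9, and fewer of all genes, were called lower. Pfn2, a neuronal profilin, fell by 0.83 (SE 0.13; edgeR adjusted p = 0.000467), from 297 ± 10.8 to 168 ± 52.0 CPM (SD, n = 6 each). Of 14 genes of immature neurons and axon growth 6 fell and 1 rose (median −0.21), against 26.4% and 25.2% of all genes. Basp1, a growth cone protein, fell by 0.72 (SE 0.17; edgeR adjusted p = 0.00398), a call lost without the 3 liver-containing libraries (edgeR adjusted p = 0.0728). The cell adhesion gene Ncam1 rose by 0.53 ± 0.12 (edgeR adjusted p = 0.00362), with DF1 below the controls at 455 CPM.

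Markers of several other cell types moved with genotype in the same libraries, in both directions, when 26.4% of all genes were called lower and 25.2% higher. Astrocyte markers (8 of 9 higher, 1 lower) summed to 6678 to 7278 CPM in controls, 11322 to 13804 in 5 Dnmt3l libraries and 7478 in DF1. Markers of mature oligodendrocytes (5 higher and 2 lower of 9), oligodendrocyte precursors (5 of 7 higher), microglia (8 of 9 higher) and endothelial cells and pericytes (9 of 9 higher) were called mostly higher. Microglial markers summed to 255 to 286 CPM in controls, 444 to 553 in those 5 libraries and 281 in DF1. Red blood cell markers had 4 of 5 called lower (median log2 change −0.99), ependymal and ciliated cell markers 4 lower and 1 higher of 8, and markers of the olfactory bulb and migrating neuroblasts 4 lower and 1 higher of 6. Interneuron markers had 4 higher and 5 lower of 10, choroid plexus markers 1 lower of 7 and striatal markers 2 lower of 8. Without the 3 liver-containing libraries 0 of the red blood cell, ependymal and neuroblast markers were called, while 8 astrocyte, 7 microglial and 8 endothelial and pericyte markers were called higher. In that fit oligodendrocyte markers had 2 higher and 1 lower, precursors 2 higher, and excitatory neuron markers 2 higher and 3 lower. Fewer of all genes were called in either direction in that fit, which keeps CF3 as the only control female. Without DF1 excitatory neuron markers had 2 higher and 9 lower, when 4745 of all genes were called higher and 5178 lower. The share of counts from mitochondrially encoded genes was 2.63% to 3.59% in controls, 5.57% to 7.30% in the 5 libraries and 3.73% in DF1. The part of these shifts in the tubulin result was not tested.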

How the data were processed

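Tubulin mRNA was measured in 12 ribosomal RNA-depleted libraries with a dUTP second-strand protocol, per the labels' protocols. The authors deposited an expected count and an FPKM value per Ensembl transcript (119414 transcripts, GRCm38), and circular RNAs with a score (10673 rows). Tools named in the submitters' processing notes, without their roles, are HISAT2 2.0.1, cutadapt 1.9.1, HTSeq 0.6.1, bedtools 2.17.0 and DESeq2. The counter of mRNA and its use of strand are not given in the sources used here.

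Expected counts were summed per gene and rounded. The 1774 transcripts without a gene ID (0.533% to 0.601% of counts) were left out. Genes with at least 0.5 FPKM in 3 or more libraries (15786) were tested with edgeR 4.0.16 (TMM, quasi-likelihood, 4 group means over 12 libraries, 8 residual degrees of freedom) in R 4.3.3, two-sided, with calls made where the p adjusted by Benjamini-Hochberg over all genes was below 0.05. CPM are TMM-scaled, except in the sums of liver markers. SE and intervals of log2 changes come from this fit. Alternatives used DESeq2 1.42.0, limma 3.58.1, other scalings and filters, a replicate block, and libraries left out. In simulated data for the effect averaged over sexes (15786 genes), 67, 67 and 66 genes were changed 1.5, 2 and 4 times. The test found 62.7%, 80.6% and 97% of them, with 8 of 168 calls false. Far fewer genes were changed there than were called in the real data. No simulated library was set apart like DF1 or by liver transcripts, so these rates may not hold for the real comparison.

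The 10 genes and the gene lists were chosen with earlier results of these data known. The text names the 10 genes, the other listed tubulin genes that passed the filter, Ttc5, Dnmt3l, and the largest called rise and fall of each pathway list. Promoter windows come from RefSeq (GRCm38.p6).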

Additional observations from a re-analysis of the deposited data

Results flagged for a closer look

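A circular RNA assigned to Tuba4a was listed with a score of 11 in DF2 and with 0 in the other 11 libraries, controls included. It was the 1 entry of the 10 tubulin genes among the 10673 circular RNAs, a kind of RNA that no comparison above used.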

How the results depend on the processing

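Averaged over sexes and in males, the 9 falling genes were called lower under all 25 alternatives run. Tubb2b changed sign around 0. Averaged over sexes it was −0.077 and −0.076 with limma on log2(FPKM + 0.1) and log2(FPKM + 1), and −0.067 to 0.118 with 1 library left out. Without the 3 liver-containing libraries and DF1, chosen after seeing the data, 1 tubulin gene was called higher, Tubb2b. In females Tubb2b was 0.006 with upper-quartile scaling, 0.091 with library weights, −0.229 to 0.166 with 1 library left out, 0.107 without the 3 libraries and 0.324 without those and DF1. The male minus female difference of Tubb2b was −0.054 and −0.271 in these last fits and −0.095 to 0.324 with 1 library left out. For Tuba1b it was 0.021 with library weights and −0.298 to 0.010 with 1 left out, and for Tubb4a 0.052 and −0.372 to 0.012. Tuba1c was −0.193 and −0.074 with limma on FPKM, −0.072 with library weights and −0.216 to 0.227 with 1 left out.

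Tubulin genes called lower in females numbered 3 with either limma fit on FPKM, 0 without the 3 liver-containing libraries and 0 to 9 with 1 library left out. The replicate block left 9, 9 and 7 tubulin genes called lower averaged over sexes, in males and in females. Same-numbered libraries of different groups correlated at −0.330 to 0.0878 over 18 pairs and 1 of 12 libraries correlated best with its own number, so the numbers were not taken as pairs.

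Counts over all genes moved more. Averaged over sexes 2329 and 2345 were higher with limma on log2(FPKM + 0.1) and log2(FPKM + 1), against 3976, and 2457 were lower and 1950 higher without the 3 libraries. In males these were 1595, 1630, 2147 and 1570. In females, against 691 lower and 746 higher, DESeq2 gave 1655 and 1566, limma on log2(FPKM + 0.1) 245 and 94, limma on log2(FPKM + 1) 282 and 93, library weights 3432 and 3147, the fit without the 3 libraries 0 and 2, and that without DF1 too 2996 and 2266. The difference between sexes was called for 5 genes by DESeq2, 6 with library weights and 5 without those 4 libraries. The control sex difference was called for 0 genes without the 3 and 12 without the 4. With 1 library left out, the counts of all genes ran from 5 to 3995 lower and 2 to 3451 higher in females, and from 0 to 26 for the difference between sexes. The cause of these shifts was not tested. The median log2 change of all genes was 0.02 with TMM, −0.06 with limma on log2(FPKM + 0.1) and 0.06 with upper-quartile scaling.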
